A study of Homo sapiens with 16 samples.

Results

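Dividing cells use a set of proteins that are made for mitosis: the kinetochore, which ties each chromosome to spindle microtubules, the motors and bundling proteins that build the spindle, and the machinery that separates sister chromatids and then splits the cell. The genes of this machinery are transcribed mainly in late S phase, G2 and M, and are repressed in cells that leave the cycle, for example after DNA damage and activation of p53. Their summed mRNA level in a culture therefore follows both how many cells are in those phases and how strongly each cell transcribes them, and these cannot be told apart in bulk RNA.

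The expression of 57 kinetochore, spindle and cytokinesis genes was examined among the 26410 genes of the deposited tables. They were chosen by symbol, matched to the Ensembl identifiers of both tables, and sorted by known role into 9 groups. One more listed symbol is not analysed here.

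Poly(A) RNA was sequenced from SH-SY5Y cells, a human neuroblastoma line, in 16 libraries of 4 groups of 4. The clones labelled TRPM2 KO (KO11 and KO28, labelled KO below) were made with a Cas9 guide against TRPM2 and a donor vector with GFP and puromycin resistance markers, and the scrambled control clones, Scr13 and Scr16, received a scrambled guide with the same donor, so that all libraries come from puromycin-selected cells grown from single cells. Each clone gave 2 replicate libraries without treatment, after 24 h in regular medium, and 2 after 24 h of doxorubicin, an anthracycline that poisons topoisomerase II and breaks DNA. The labels give a dose of 0.3 µM and the series text gives 3 µM. With 2 clones per genotype, a difference between genotypes cannot be told apart from a difference between single clones, and the study calls the replicates of a clone biological without saying how they were grown, so p-values measure the spread between libraries of these clones.

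The libraries held between 10481177 and 25086085 reads on genes, and the library with the fewest was Scr16 after doxorubicin, replicate 1. By group, reads ranged from 15839054 to 25086085 in untreated Scr, from 10481177 to 16711477 in Scr after doxorubicin, from 13611339 to 17771010 in untreated libraries labelled KO, and from 15545604 to 16982973 in those labelled TRPM2 KO after doxorubicin. Levels are given as deposited, in normalized CPM (reads scaled to the effective size of each library), always in the order replicates 1 and 2 of Scr13 and then of Scr16, or of KO11 and then of KO28. The 2 treatments were deposited as separate tables, so doxorubicin changes were computed after all 16 libraries were put on one scale, which moved no library by more than 0.965%. A change or difference is in log2(normalized CPM + 1) with its standard error (SE), and a gene was called when its limma p, adjusted with the Benjamini-Hochberg method over all genes tested, was below 0.05.

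TRPM2 itself, a calcium-permeable channel, was read first. It was at 0.118, 0.115, 0 and 0 normalized CPM in untreated Scr and at 1.93, 2.23, 1.41 and 2.19 in untreated libraries labelled KO. After doxorubicin it was at 0.0594, 0.0631, 1.33 and 0.390 in Scr and at 1.22, 1.83, 1.37 and 0.658 in the libraries labelled KO. Reads of TRPM2 were thus more abundant in all 4 untreated libraries labelled KO than in any untreated Scr library, while 1 Scr library after doxorubicin (Scr16 replicate 1) lay within the range of the labelled ones. By the methods of the study the edit removed the DNA for the start of the protein and shifted the frame of what follows, and the clones were checked by RT-PCR and Western blotting. The tables sum reads over the whole gene, most of it outside the removed part, so these values neither test the labels nor show whether the transcripts carry the edit. Each library's 3-read floor lies between 0.118 and 0.285 normalized CPM, a limit for counting error only. Every direction given between the genotypes below refers to the labels.

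Over all 57 genes, the summed level was 6618, 7179, 7415 and 6471 normalized CPM in untreated Scr and 6125, 6624, 6376 and 7098 in Scr after doxorubicin. It was 6646, 6891, 6405 and 6256 in the untreated libraries labelled KO and 4741, 5209, 5239 and 5095 in those labelled TRPM2 KO after doxorubicin. The last 4 values lie below the other 12, which overlap among the remaining 3 groups, and the group means (SD, n = 4) were 6921 ± 449, 6556 ± 415, 6549 ± 279 and 5071 ± 229. These genes took between 0.462% and 0.763% of all reads on genes. Per kilobase of merged exons, the mean over all libraries was highest for the ubiquitin-conjugating enzymes UBE2S (92.0 CPM per kb) and UBE2C (88.2), then TPX2 (68.7), NUSAP1 (63.6) and CENPF (60.7), and lowest among the tested genes for CENPL (5.05), CENPK (5.17) and CENPM (5.92).

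**Figure D1:**
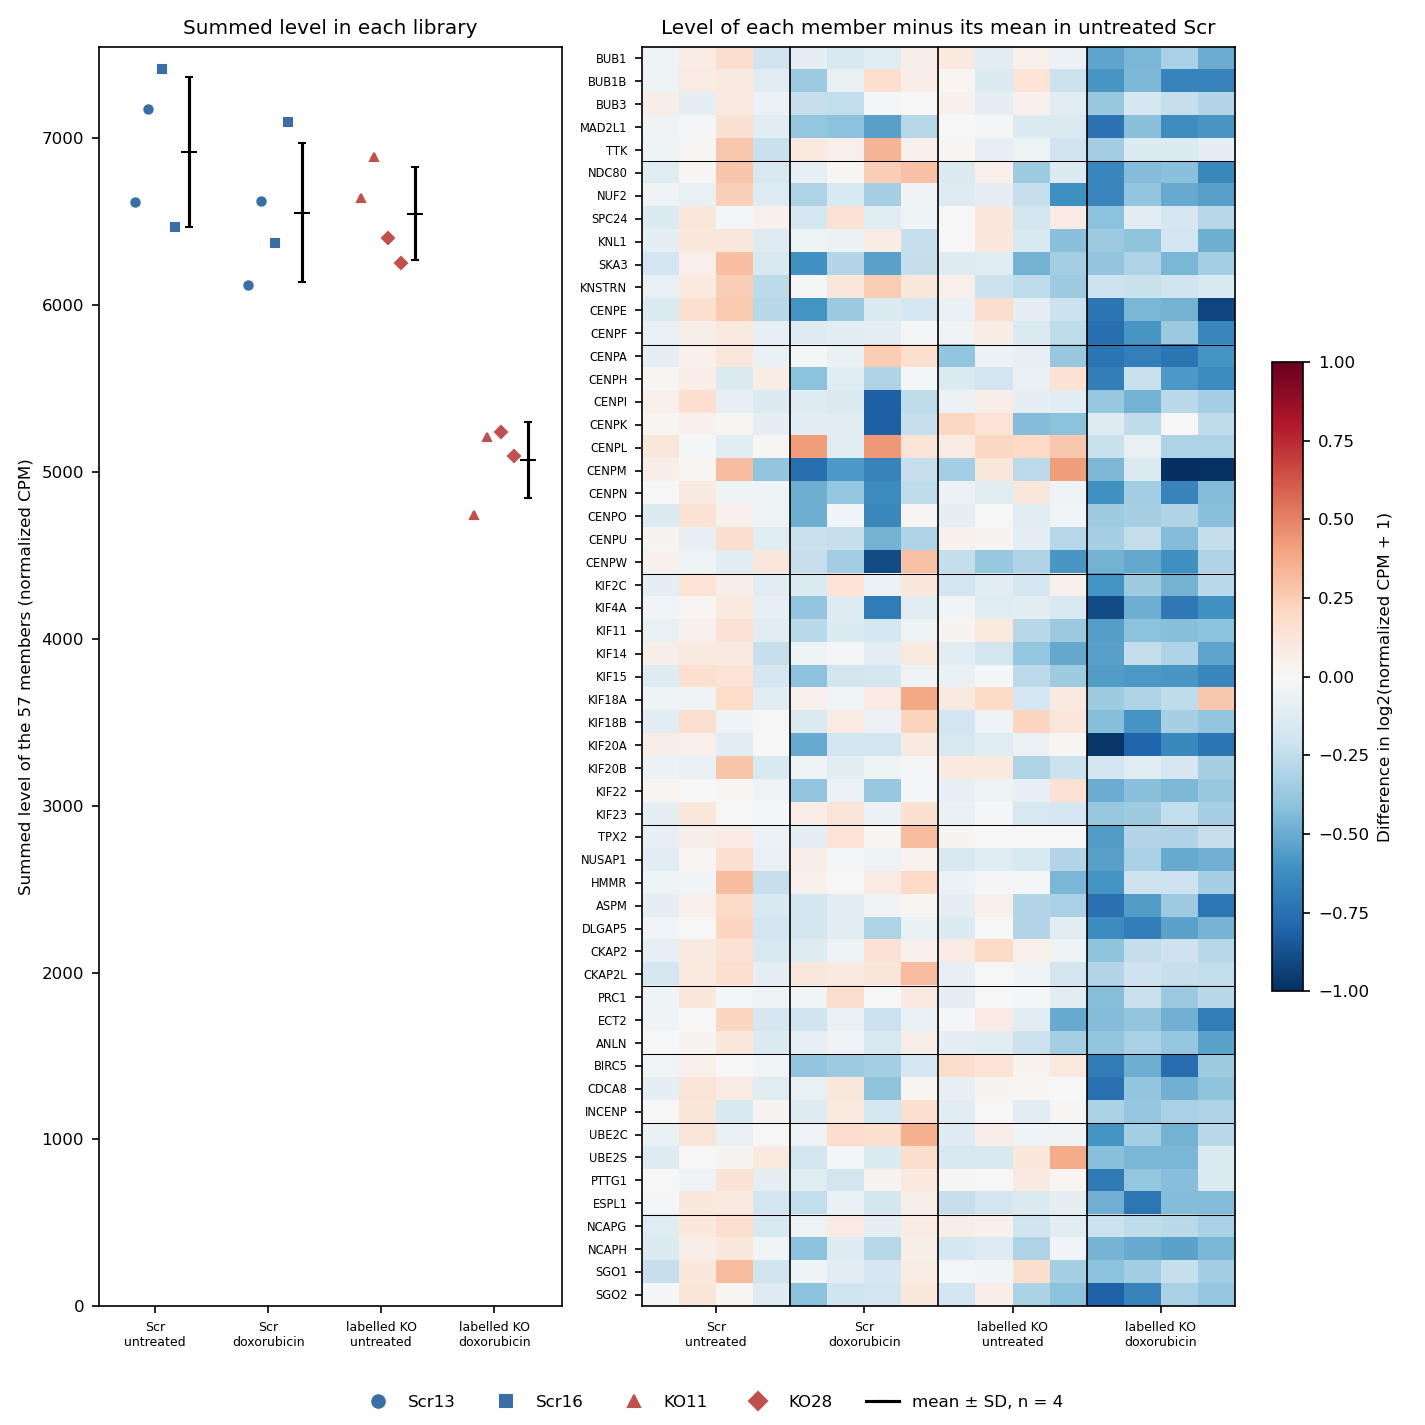
Left, the summed level of the 57 genes in normalized CPM in each of the 16 libraries, one marker shape per clone, with the mean and SD of each group of 4. Right, the level of each of the 55 tested genes (rows, grouped by role between the horizontal lines) in each library (columns) minus its mean in untreated Scr, on the log2(normalized CPM + 1) scale, with values beyond 1 in size drawn in the end colours. The 4 libraries labelled KO after doxorubicin lie between 4741 and 5239 on the left, below all others.

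SPC25, an NDC80 complex subunit, and KIFC1, a minus-end directed kinesin, did not pass the filter of 1 normalized CPM in 4 libraries and were not tested. SPC25 lay between 0 and 1.69 normalized CPM in all libraries and KIFC1 between 0 and 0.511. The other 55 genes passed, with mean counts per library from 161 reads for CENPW to 11679 for CENPF. Of the 57, 10 overlap another annotated gene on the same strand, 28 overlap one on the opposite strand and 11 have annotated pseudogenes that carry their name, so that reads may be split or shared: UBE2C has 4 such pseudogenes. The strand setting of the counting is not given in the sources used here.

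The first question was what doxorubicin did to these genes in the control clones. In Scr, 6 of the 55 genes fell and 0 rose, against 5.04% of all 15325 genes tested that were called lower and 6.41% called higher. The 6 were CENPN, SKA3, MAD2L1, KIF4A, BIRC5 and CENPU, with log2 changes from -0.45 to -0.31. The median change of the 55 was -0.079, that of all genes -0.015, and 40 of the 55 changes were below 0. For 7 genes all 4 libraries after doxorubicin lay below all 4 untreated ones, against 8.14% of all genes, and for 0 they lay above. At an unadjusted p under 0.05 there were 13 of 55 in either direction, against 24.7% of all genes, a share near the background. The quasi-likelihood test of edgeR and DESeq2 each called 6 of the 55, and 1692 and 2100 over all genes. The count depended on single libraries: it was 3 without the untreated Scr16 replicate 1 and 10 without Scr16 after doxorubicin, replicate 2, and it was 0 with clone Scr13 left out and 1 with Scr16 left out. Over all genes the calls in either direction numbered 1755, and 1285, 1961, 454 and 774 in these fits, in the same order.

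In the clones labelled TRPM2 KO the same comparison was made. Here 34 of the 55 genes fell and 0 rose, against 6.95% of all genes called lower and 9.67% called higher. At an unadjusted p under 0.05 there were 45 of 55, against 28.7% of all genes in either direction. The median change was -0.34, with that of all genes at 0.021, and 54 of the 55 changes were below 0. For 36 genes the treated and untreated libraries did not overlap, all with lower values after treatment, against 8.16% of all genes. The largest falls were in KIF20A (-0.70), BIRC5 (-0.68), CENPM (-0.65), CENPE (-0.59), KIF4A (-0.57) and BUB1B (-0.54). Without clone KO11 the count was 10 of 55, and without clone KO28 it was 27. Over all genes the calls in either direction numbered 2547, with 858 without KO11 and 1321 without KO28.

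Of the 34 genes called in the libraries labelled KO, 4 were also called in Scr (MAD2L1, CENPN, KIF4A and BIRC5), and CENPU and SKA3 were called in Scr alone. Whether the doxorubicin change differed between genotypes was tested as an interaction. By limma it was called lower for 0 of 55 genes and higher for 0, against 0.00653% of all genes called lower, which is 1 gene, and 0.0131% called higher, which is 2. At an unadjusted p under 0.05 there were 23 of the 55, against 7.48% of all genes in either direction. All 23 had a more negative change in the libraries labelled KO than in Scr, where some estimates, such as that of UBE2C, were above 0. The lowest adjusted p was 0.124, for UBE2C. The quasi-likelihood test of edgeR called 0, and DESeq2 called 2, UBE2C (-0.57, adjusted p = 0.00742) and TPX2 (-0.47, adjusted p = 0.0324). Over all genes edgeR called 3 of 15325 and DESeq2 31 of 15321. Each clone gave libraries of both treatments: limma with clone as a block called 0, and with clone and replicate number as a block it called 1, UBE2C (-0.55, adjusted p = 0.0276). Over all genes these blocks gave 5 and 25 calls. The median interaction of the 55 genes was -0.24, with 49 of 55 below 0, and that of all genes was 0.030. The 95% interval of an interaction reached, at the median over the 55 genes, 0.28 to either side of its estimate.

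**Figure D2:**
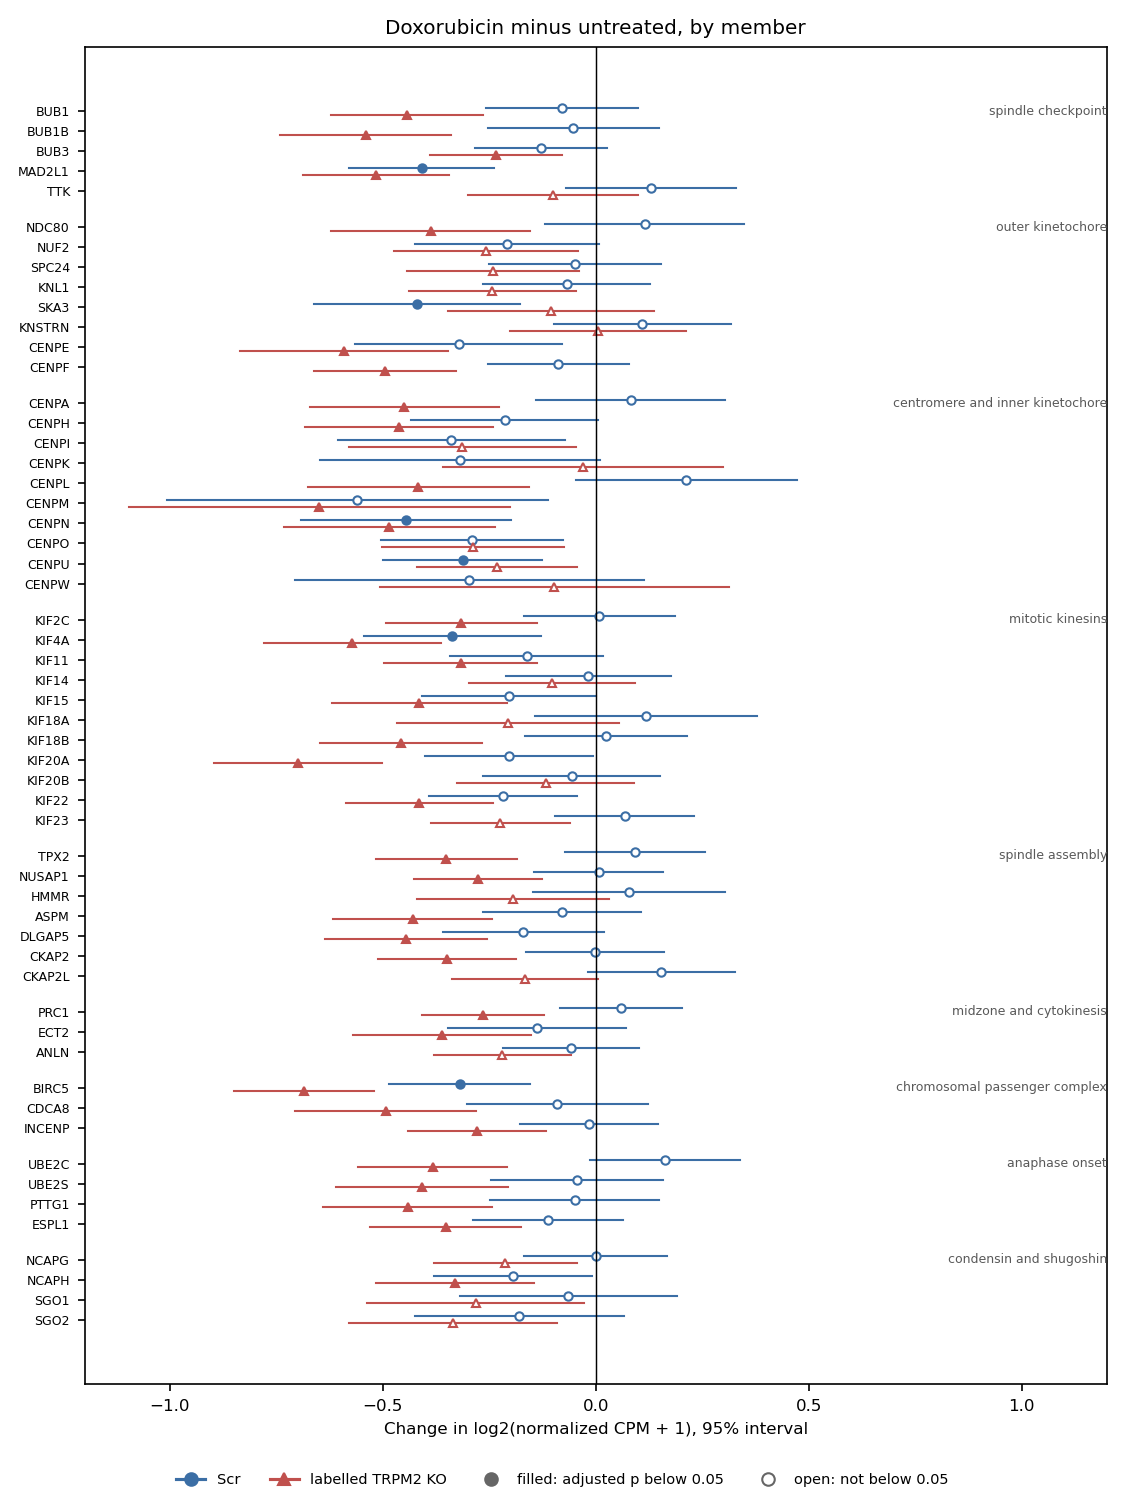
Change with doxorubicin of each of the 55 tested genes on the log2(normalized CPM + 1) scale with its 95% interval, in Scr (circles) and in the libraries labelled KO (triangles), grouped by role. Filled symbols mark an adjusted p below 0.05: 6 circles and 34 triangles, all left of 0.

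Within single clones the members moved as follows, given as a description of 2 libraries against 2. In KO11 all 55 genes were lower after doxorubicin, with a median change of -0.39 and a range from -0.75 to -0.13. In KO28 47 genes were lower, with a median of -0.27. Scr13 had 40 lower genes and a median of -0.10, and Scr16 had 36 and a median of -0.056. Among all 15325 genes, the share lower after doxorubicin was 51.7% in Scr13, 51.1% in Scr16, 47.6% in KO11 and 47.0% in KO28. In all 4 clones together, 28 of the 55 genes were lower after treatment, among them BUB3, CENPN, CENPO, KIF4A, BIRC5 and NCAPH. The share of all genes lower in all 4 clones was not computed, so this count cannot be set against a background. The clones labelled TRPM2 KO differed most in SGO2 (-0.68 in KO11 and 0.0076 in KO28), CENPK (-0.36 and 0.30) and CENPM (-0.18 and -1.12).

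**Figure D3:**
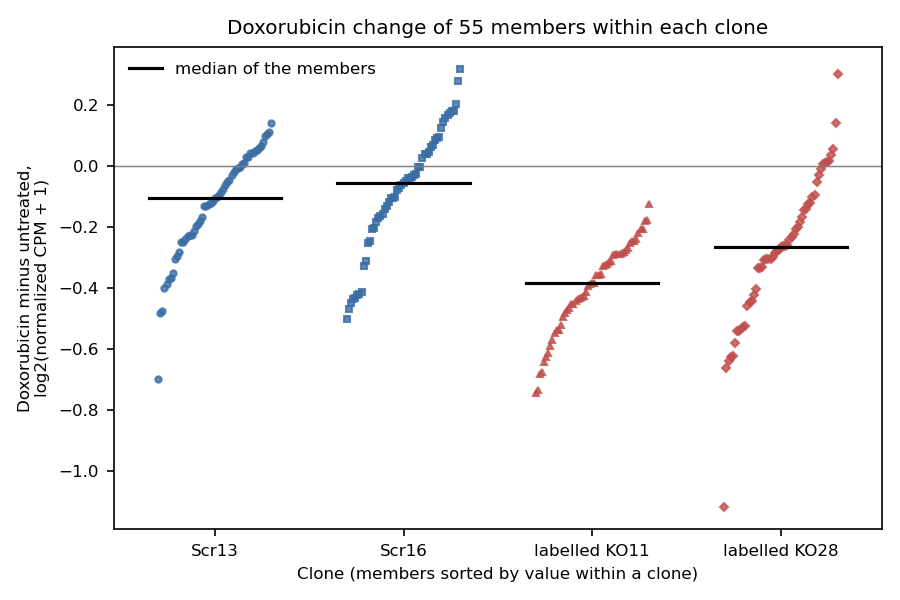
Doxorubicin change of the 55 tested genes on the log2(normalized CPM + 1) scale within each of the 4 clones, sorted by value within a clone, each point a gene and the bar the median. The medians are -0.10 and -0.056 in the Scr clones and -0.39 and -0.27 in the clones labelled KO.

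The second question was how the genotypes differed within a treatment. Without treatment, 0 of the 55 genes were called by limma in either direction, against 2.54% of all 14364 genes called lower and 2.3% called higher. The tests of edgeR and DESeq2 also called 0, with 642 and 862 calls over all genes. There were 7 of 55 at an unadjusted p under 0.05, against 14.3% of all genes, again near the background. The median difference was -0.077 and the 95% intervals of the single genes lay between -0.72 and 0.43. In 2 genes, CENPW and NUSAP1, the 4 libraries labelled KO were all below the 4 Scr libraries, against 5.0% of all genes. KIF14 had the lowest p, with a difference of -0.30 and an adjusted p of 0.0891. It was called without Scr16 replicate 2 (-0.38), without KO11 replicate 1 (-0.36) and without clone KO11 (-0.45, with KIF11 at -0.32).

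After doxorubicin, 33 of the 55 genes were lower in the libraries labelled KO and 0 higher, against 4.17% of all 14572 genes called lower and 4.52% called higher. At an unadjusted p under 0.05 there were 44 of 55, against 20.3% of all genes in either direction. The median difference was -0.33, that of all genes 0.014, and 53 of 55 differences were below 0. In 32 genes the groups did not overlap, against 6.42% of all genes, and all of these were lower in the libraries labelled KO. The largest differences were in CENPA (-0.77), NDC80 (-0.65), UBE2C (-0.59), KIF20A (-0.58), BUB1B (-0.54) and ASPM (-0.52). This comparison shares its libraries with both doxorubicin changes and is no separate evidence on them. In the same libraries CDKN1A was higher in those labelled KO (difference 1.12). Of 7 mesenchymal markers tested, 5 were called higher there, with VIM at 1.23 and FN1 at 2.14. TWIST1, at -0.64, was the 1 called lower. The part of such genes in the result was not tested. The count was 12 without clone KO11 and 20 without clone KO28. Over all genes the calls in either direction numbered 1266, with 510 without KO11 and 575 without KO28. Where the groups of 4 did not overlap, the two-sided exact permutation test on the levels gave p = 0.0286, the smallest that 4 against 4 libraries allow.

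**Figure D4:**
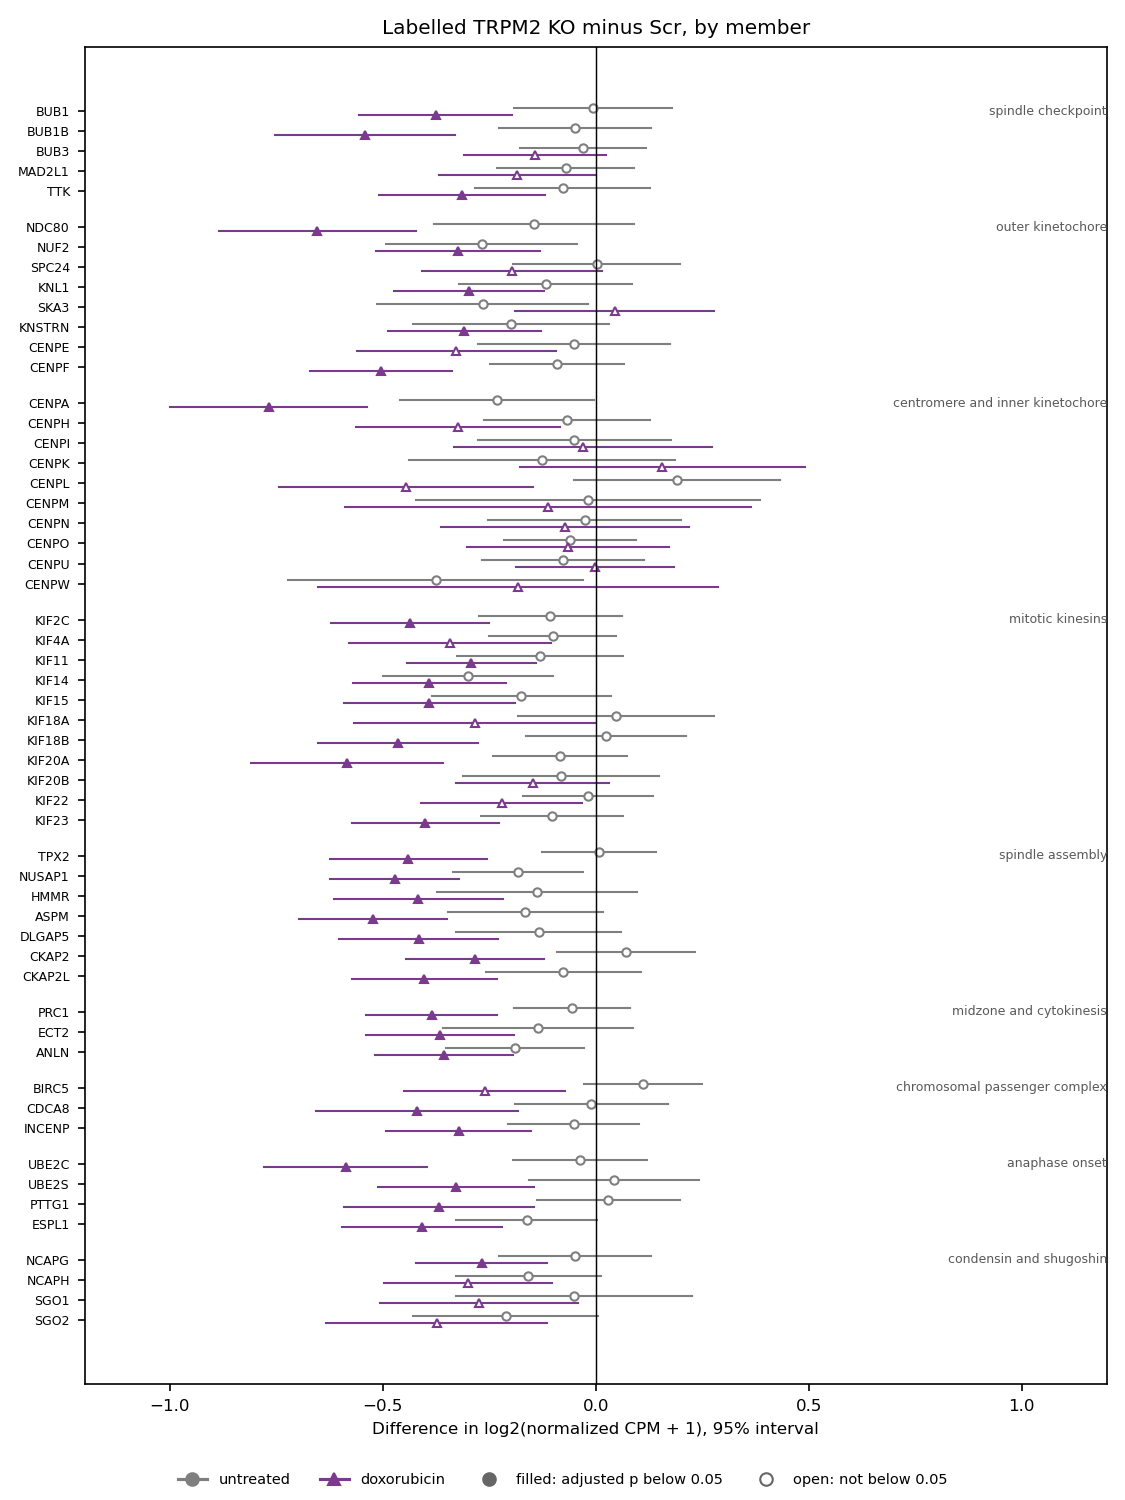
Difference between the libraries labelled KO and Scr for each of the 55 tested genes on the log2(normalized CPM + 1) scale with its 95% interval, untreated (circles) and after doxorubicin (triangles). Filled symbols mark an adjusted p below 0.05: 0 circles and 33 triangles, all left of 0.

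The promoters of the genes at both ends of the doxorubicin change in Scr are shown because late cell cycle genes are known to carry a cell cycle genes homology region (CHR) near their start, often with CCAAT boxes upstream, through which the DREAM and MuvB complexes act. The windows come from RefSeq on GRCh38.p14 and run from 120 bases before to 30 bases after the start. Capitals mark the CHR letters searched, TTTGAA or TTCGAA on either strand. CENPN (-0.45), SKA3 (-0.42) and MAD2L1 (-0.41) had the most negative changes in Scr and CKAP2L (0.15), KIF18A (0.12) and PRC1 (0.059) the most positive, none of the last 3 called, with no more than 1 gene per role and only where the table held a window.
CENPN, chr16:81007094-81007243, plus strand: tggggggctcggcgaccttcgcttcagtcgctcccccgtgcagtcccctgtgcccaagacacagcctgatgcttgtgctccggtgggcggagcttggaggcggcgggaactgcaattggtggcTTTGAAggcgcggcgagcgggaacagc
SKA3, chr13:21176523-21176672, minus strand: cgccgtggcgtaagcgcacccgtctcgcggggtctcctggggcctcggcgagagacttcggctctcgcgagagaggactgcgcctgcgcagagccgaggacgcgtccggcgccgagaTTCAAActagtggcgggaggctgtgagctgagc
MAD2L1, chr4:120066819-120066968, minus strand: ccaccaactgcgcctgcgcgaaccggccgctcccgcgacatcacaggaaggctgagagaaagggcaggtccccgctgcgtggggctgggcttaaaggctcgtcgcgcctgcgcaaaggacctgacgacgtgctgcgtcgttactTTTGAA
CKAP2L, chr2:112764580-112764729, minus strand: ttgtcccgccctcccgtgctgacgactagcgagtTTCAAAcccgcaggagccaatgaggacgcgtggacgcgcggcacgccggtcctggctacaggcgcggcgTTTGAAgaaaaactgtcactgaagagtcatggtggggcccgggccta
KIF18A, chr11:28108127-28108276, minus strand: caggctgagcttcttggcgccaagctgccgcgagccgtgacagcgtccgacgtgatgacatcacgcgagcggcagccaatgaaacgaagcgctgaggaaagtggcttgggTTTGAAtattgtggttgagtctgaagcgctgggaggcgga
PRC1, chr15:90994506-90994655, minus strand: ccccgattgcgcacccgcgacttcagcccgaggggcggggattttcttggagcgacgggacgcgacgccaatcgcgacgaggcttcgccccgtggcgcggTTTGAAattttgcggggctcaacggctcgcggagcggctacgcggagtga

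Both ends of the list thus carried CHR letters: 1 match in each of these windows and 2 in CKAP2L. The first base of the match lay 20 bases before the start in PRC1, 10 before in KIF18A, 17 and 86 before in CKAP2L and 3 before in SKA3. In CENPN it was the 4th base after the start and in MAD2L1 the 25th. A CCAAT (either strand) began 53 bases before the start in PRC1, 45 before in KIF18A, 70 before in CKAP2L and 6 before in CENPN.

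Windows of 300 bases (250 before and 50 after the start) were found for 48 of the 57 genes, as 52 windows. BUB3, CENPM, UBE2C, BIRC5, TTK, KNL1, CENPL, CENPH and TPX2 had no entry. CHR letters were in 37 of the 52 windows (71.2%) and in 16.4% of all 35116 windows. CCAAT was in 71.2% of the members' windows and in 34.6% of all, and both together in 51.9% and 6.38%. The E2F letters searched, TTCCCGC or TTGGCGC on either strand, which may overlap each other, were in 17.3% and 9.23%. In the libraries labelled KO the median doxorubicin change was -0.32 over the 33 tested genes with CHR letters and -0.33 over the 13 without. In Scr these medians were -0.079 and -0.18. Promoters of one function often share bases, so these shares describe the windows and test nothing.

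The spindle checkpoint holds back anaphase until every kinetochore is attached. All 5 genes were tested. With doxorubicin 1 was called lower in Scr and 4 in the libraries labelled KO, against 5.04% and 6.95% of all genes. After doxorubicin 3 were called lower in the libraries labelled KO than in Scr, against 4.17% of all genes. The same shares apply to the groups below, where 1 call among so few genes is not read as a result. MAD2L1 (ENSG00000164109, chr4:120055608-120067074, minus strand), the inhibitor of CDC20, measured 125, 126, 142 and 118 normalized CPM in untreated Scr and 97.5, 95.7, 87.5 and 105 after doxorubicin. MAD2L1 in the libraries labelled KO was at 128, 127, 116 and 116 and, after doxorubicin, at 76.2, 95.3, 82.5 and 85.1. It fell by 0.41 (SE 0.083, adjusted p = 0.00118) in Scr and by 0.52 (SE 0.083, adjusted p = 4.03e-05) in the libraries labelled KO, without overlap in either genotype. It had the lowest p of the 55 in Scr, and the interaction of -0.11 had an interval from -0.35 to 0.13.

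BUB3 recruits BUB1 and BUBR1 to the kinetochore. BUB3 measured 197, 176, 201.1 and 182 in untreated Scr and 161, 159, 186 and 189 after doxorubicin. BUB3 in the libraries labelled KO went from 194, 177, 194 and 175 to 145, 168, 161 and 154, a fall of 0.23 (SE 0.076, adjusted p = 0.0308). The groups did not overlap, and of the 34 calls in these libraries only that of CENPM had a higher adjusted p. In 24 alternatives the call of BUB3 was lost in 9. TTK, the kinase that starts the checkpoint signal, was at 68.3, 71.4, 85.6 and 60.7 in untreated Scr and 75.9, 73.5, 90.3 and 73.0 after doxorubicin. TTK in the libraries labelled KO was at 71.9, 67.0, 68.5 and 61.8 untreated and at 55.5, 64.4, 64.4 and 66.1 after doxorubicin. Its doxorubicin changes, 0.13 in Scr and -0.10 in the libraries labelled KO, did not pass the test, while the treated groups did not overlap and differed by -0.31 (adjusted p = 0.0386), a call lost in 12 of 23 alternatives. The kinase BUB1 and BUB1B, which encodes BUBR1, changed by -0.44 and -0.54 with doxorubicin in the libraries labelled KO (adjusted p = 4.99e-04 and 1.89e-04) and by -0.080 and -0.053 in Scr, where neither was called.

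The outer kinetochore grips microtubules through the NDC80 complex, the SKA complex and KNL1, and carries the motor CENPE. Of 8 genes tested, 1 was called lower in Scr and 3 in the libraries labelled KO, against 5.04% and 6.95% of all genes. After doxorubicin 5 were called lower there than in Scr. CENPF (ENSG00000117724, chr1:214603195-214664588, plus strand), a large protein of the outer corona, measured 757, 832, 855 and 755 in untreated Scr and 730.1, 741, 752 and 791 after doxorubicin. CENPF in the libraries labelled KO was at 778, 842, 721 and 668 untreated and at 474, 533, 618 and 508 after doxorubicin. All 4 of the last values lie below the other 12. Its change was -0.088 in Scr (adjusted p = 0.552) and -0.50 in the libraries labelled KO (SE 0.081, adjusted p = 4.98e-05), and the interaction of -0.41 had an adjusted p of 0.25.

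SKA3, of the SKA complex, had the larger estimated fall in Scr. SKA3 measured 42.9, 51.0, 61.0 and 44.0 in untreated Scr and 32.0, 40.0, 33.7 and 41.7 after doxorubicin, without overlap. SKA3 in the libraries labelled KO was at 44.9, 45.2, 35.2 and 38.8 untreated and at 37.3, 39.6, 35.7 and 38.8 after doxorubicin, which overlap. It fell by 0.42 in Scr (SE 0.12, adjusted p = 0.0178, lost in 7 of 24 alternatives), its change in the libraries labelled KO was -0.10 (adjusted p = 0.617), and the interaction of 0.32 did not pass the test (adjusted p = 0.697). The treated groups differed by 0.044 with an interval from -0.19 to 0.28.

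NDC80, the subunit that names the microtubule-binding complex, was at 46.2, 50.8, 61.2 and 45.0 in untreated Scr and 47.5, 51.0, 60.1 and 61.9 after doxorubicin. NDC80 in the libraries labelled KO was at 45.7, 52.3, 39.1 and 45.7 untreated and at 31.8, 37.1, 37.5 and 31.9 after doxorubicin, with a fall of 0.39 (SE 0.11, adjusted p = 0.0175). After doxorubicin the genotypes did not overlap, with a difference of -0.65 (adjusted p = 3.85e-04). Its partner NUF2 was at 90.9, 88.8, 110.4 and 85.1 in untreated Scr and 75.1, 84.1, 74.1 and 91.1 after doxorubicin. NUF2 in the libraries labelled KO was at 85.2, 87.2, 79.3 and 60.8 untreated and at 58.5, 70.7, 65.4 and 63.6 after doxorubicin. Neither doxorubicin change of NUF2 passed the test, and it was lower in the treated libraries labelled KO by 0.32 (adjusted p = 0.0299), a call lost in 11 of 23 alternatives. CENPE, a plus-end motor, fell by 0.59 in the libraries labelled KO (adjusted p = 6.32e-04), and KNSTRN, a spindle-attachment protein, had a change of 0.0057 there, the only one of the 55 above 0.

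The centromere is marked by the histone variant CENPA, and the constitutive centromere network (CENPH to CENPW) sits on it through the whole cycle. The median change of this group in Scr, -0.30, was the lowest of the 9 groups. Of its 10 genes, 2 were called lower in Scr and 5 in the libraries labelled KO, against 5.04% and 6.95% of all genes. After doxorubicin 9 of the 10 differences from Scr were below 0, and only that of CENPA was called, against 4.17% of all genes. CENPA (ENSG00000115163, chr2:26764289-26801067, plus strand) measured 40.5, 44.6, 46.6 and 41.0 in untreated Scr and 42.8, 41.1, 51.4 and 48.4 after doxorubicin. CENPA in the libraries labelled KO was at 32.5, 41.3, 40.6 and 32.8 untreated and at 25.6, 26.5, 25.6 and 28.2 after doxorubicin. The difference after doxorubicin, -0.77 (SE 0.11, adjusted p = 6.28e-05), was the largest of the 55, and without treatment it was -0.23 (adjusted p = 0.337). Its change with doxorubicin was 0.082 in Scr (adjusted p = 0.701) and -0.45 in the libraries labelled KO (adjusted p = 0.00365).

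CENPM had the largest estimated fall in Scr but few reads, 174 per library on average, and a wide spread. CENPM measured 13.3, 12.9, 16.0 and 9.43 in untreated Scr and 7.13, 8.20, 7.60 and 10.7 after doxorubicin. CENPM in the libraries labelled KO was at 9.81, 13.8, 10.5 and 17.4 untreated and at 9.02, 11.4, 5.43 and 5.92 after doxorubicin. The change of -0.56 in Scr was not called (SE 0.22, adjusted p = 0.0979), and that of -0.65 in the libraries labelled KO was (adjusted p = 0.0392; lost in 8 of 24 alternatives), with overlapping groups in both. CENPL, which binds CENPN, was at 25.8, 23.4, 21.9 and 24.0 in untreated Scr and 32.0, 21.8, 32.4 and 26.0 after doxorubicin. CENPL in the libraries labelled KO was at 25.2, 27.5, 27.4 and 28.8 untreated and at 20.2, 22.4, 19.0 and 19.0 after doxorubicin. It had the most positive change in Scr, 0.21 (adjusted p = 0.311), and fell by 0.42 in the libraries labelled KO (adjusted p = 0.0220), with an interaction of -0.63 (adjusted p = 0.262).

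CENPO, another subunit of this network, was at 134, 163, 153 and 143 in untreated Scr and 105, 145, 94.1 and 149 after doxorubicin. CENPO in the libraries labelled KO was at 138, 148, 136 and 145 untreated and at 116, 117, 119.9 and 110.1 after doxorubicin. Its changes were the same to 2 decimals, -0.29 and -0.29, and neither was called (adjusted p = 0.0697 and 0.0560). In Scr after doxorubicin replicate 1 of both clones was below replicate 2 of both, and in the libraries labelled KO the treated values lay below all untreated ones. Of the rest, CENPN and CENPU fell in Scr by 0.45 and 0.31 (adjusted p = 0.0140 and 0.0236), and CENPN and CENPH fell in the libraries labelled KO by 0.48 and 0.46 (adjusted p = 0.00500 and 0.00270). Interactions in this group lay on both sides of 0, 5 below and 5 above, with a median of -0.019.

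The mitotic kinesins move chromosomes and slide, sort and shorten spindle microtubules. Of 11 tested, 1 was called lower in Scr and 7 in the libraries labelled KO, against 5.04% and 6.95% of all genes. After doxorubicin 7 were called lower there than in Scr, against 4.17% of all genes. KIF20A (ENSG00000112984, chr5:138178719-138187715, plus strand), which carries the chromosomal passenger complex to the midzone, measured 112, 111, 99.4 and 107 in untreated Scr and 75.3, 93.7, 93.8 and 114 after doxorubicin. KIF20A in the libraries labelled KO was at 95.8, 98.5, 103 and 108 untreated and at 54.2, 61.6, 68.5 and 64.2 after doxorubicin. Its fall of 0.70 there (SE 0.096, adjusted p = 3.98e-06) was the largest of the list, that in Scr was not called (-0.20, adjusted p = 0.184), and the interaction was -0.49 (adjusted p = 0.228).

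KIF4A, a chromosome arm and midzone motor, changed in both genotypes. KIF4A measured 129.8, 134, 142 and 125 in untreated Scr and 101, 121, 81.3 and 122 after doxorubicin. KIF4A in the libraries labelled KO was at 129.8, 122, 123 and 119 untreated and at 70.8, 94.2, 80.2 and 86.8 after doxorubicin. It fell by 0.34 in Scr (adjusted p = 0.0288, lost in 8 of 24 alternatives) and by 0.57 in the libraries labelled KO (adjusted p = 1.52e-04), with no overlap in either. KIF11, the motor that pushes the spindle poles apart, was at 212, 229, 246 and 206 in untreated Scr and 185, 202, 197 and 215 after doxorubicin. KIF11 in the libraries labelled KO was at 227, 238, 184 and 172 untreated and at 152, 167, 165 and 167 after doxorubicin. It fell there by 0.32 (adjusted p = 0.0114), and its change in Scr was -0.16 (adjusted p = 0.258).

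KIF18B, which shortens astral microtubules, was at 99.4, 120.3, 104 and 107 in untreated Scr and 97.3, 114, 103 and 126 after doxorubicin. KIF18B in the libraries labelled KO was at 94.2, 105, 125 and 116 untreated and at 79.8, 71.2, 85.0 and 81.3 after doxorubicin. The last group was below the others, with a fall of 0.46 (SE 0.093, adjusted p = 6.87e-04) and an interaction of -0.48 (adjusted p = 0.225). Its relative KIF18A, which damps chromosome movement at the metaphase plate, passed none of the tests. KIF18A measured 35.7, 36.0, 42.1 and 34.4 in untreated Scr and 38.1, 36.3, 39.3 and 48.5 after doxorubicin. KIF18A in the libraries labelled KO was at 39.5, 42.2, 32.6 and 39.3 untreated and at 28.7, 29.6, 30.8 and 44.8 after doxorubicin, with 1 high library among the treated. Its changes were 0.12 (interval -0.14 to 0.38) and -0.21 (interval -0.47 to 0.054).

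KIF14, needed for the last step of cytokinesis, was called between genotypes and not between treatments. KIF14 measured 122, 125, 125 and 99.5 in untreated Scr and 114, 115, 109.6 and 126 after doxorubicin. KIF14 in the libraries labelled KO was at 108, 103, 89.3 and 81.9 untreated and at 80.0, 98.9, 94.4 and 81.1 after doxorubicin. After doxorubicin the groups did not overlap and differed by -0.39 (SE 0.087, adjusted p = 0.00464), and the changes with doxorubicin were -0.017 and -0.10, neither called. The other kinesins called in the libraries labelled KO were KIF15 (-0.41), KIF22 (-0.41) and KIF2C (-0.32), and KIF20B and KIF23 were not called in either doxorubicin change.

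Spindle assembly proteins bundle and anchor microtubules at the poles and around chromosomes. None of these 7 genes was called in Scr, and 5 were called lower in the libraries labelled KO. After doxorubicin all 7 were called lower there than in Scr, each without overlap. ASPM (ENSG00000066279, chr1:197084128-197146694, minus strand), of the spindle poles, measured 417, 458, 507 and 399 in untreated Scr and 390.1, 413, 432 and 450.5 after doxorubicin. ASPM in the libraries labelled KO was at 414, 459.8, 362 and 354 untreated and at 264, 300.4, 343 and 269 after doxorubicin. It fell there by 0.43 (SE 0.091, adjusted p = 0.00106), and the treated groups differed by -0.52 (SE 0.083, adjusted p = 1.81e-04).

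NUSAP1, a microtubule bundler, separated the genotypes in both treatments. NUSAP1 (ENSG00000137804, chr15:41332694-41381050, plus strand) measured 188, 205, 226 and 192 in untreated Scr and 212, 200.8, 195 and 207 after doxorubicin. NUSAP1 in the libraries labelled KO was at 181, 186, 181 and 165 untreated and at 138, 161, 142 and 145 after doxorubicin. The genotypes did not overlap in either treatment, with a difference of -0.18 before (adjusted p = 0.222, not called) and -0.47 after doxorubicin (SE 0.073, adjusted p = 1.35e-04). TPX2, which activates Aurora A, was at 242, 266, 271 and 246 in untreated Scr and 239.7, 281, 260.0 and 318 after doxorubicin. TPX2 in the libraries labelled KO was at 261, 256, 257 and 255 untreated and at 174, 208, 208 and 218 after doxorubicin. It fell there by 0.35 (adjusted p = 0.00242), its change in Scr was 0.092 (adjusted p = 0.527), and the interaction of -0.44 had an adjusted p of 0.212 by limma.

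DLGAP5, a stabilizer of kinetochore fibres, was at 85.5, 87.4, 101 and 75.9 in untreated Scr and 76.5, 80.5, 70.2 and 82.9 after doxorubicin. DLGAP5 in the libraries labelled KO was at 79.0, 87.0, 70.6 and 80.8 untreated and at 55.7, 53.3, 59.6 and 62.7 after doxorubicin, a fall of 0.45 (adjusted p = 8.87e-04). CKAP2L, a spindle protein of proliferating cells, had the most positive change in Scr of this group. CKAP2L measured 76.7, 92.6, 96.4 and 80.8 in untreated Scr and 93.1, 92.0, 93.8 and 107 after doxorubicin. CKAP2L in the libraries labelled KO was at 81.3, 86.3, 83.8 and 76.0 untreated and at 70.1, 74.4, 73.4 and 72.5 after doxorubicin. Its changes of 0.15 and -0.17 were not called (adjusted p = 0.264 and 0.193), and after doxorubicin the libraries labelled KO were lower by 0.40 (adjusted p = 0.00210). The interaction estimates of all 7 genes were below 0, from -0.44 to -0.27, with 0 called.

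In the midzone and cytokinesis group, PRC1 crosslinks antiparallel microtubules, ECT2 activates RhoA at the equator and ANLN anchors the contractile ring. None of the 3 was called in Scr, where 2 of the changes were below 0. In the libraries labelled KO 2 were called lower. After doxorubicin all 3 were called lower there than in Scr, with differences from -0.39 to -0.36. PRC1 measured 265, 293, 268 and 263.4 in untreated Scr and 268, 308, 272 and 290.2 after doxorubicin. PRC1 in the libraries labelled KO was at 254, 272, 269 and 253 untreated and at 203, 233, 210.3 and 224 after doxorubicin, below all other libraries. It fell there by 0.26 (SE 0.070, adjusted p = 0.00784). ECT2 was at 128, 130.3, 152 and 116 in untreated Scr and 114, 125, 113 and 125 after doxorubicin. ECT2 in the libraries labelled KO was at 129, 138, 122 and 91.8 untreated and at 96.6, 99.3, 93.5 and 80.7 after doxorubicin. Its fall of 0.36 was called (adjusted p = 0.0133) although 1 untreated library, KO28 replicate 2, lay within the treated range, and was lost in 6 of 24 alternatives.

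The chromosomal passenger complex corrects faulty attachments and then guides cytokinesis. In Scr 1 of 3 genes was called lower, and in the libraries labelled KO all 3 were, against 5.04% and 6.95% of all genes. After doxorubicin 2 were called lower there than in Scr. BIRC5 (ENSG00000089685, chr17:78214186-78225636, plus strand), which encodes survivin, measured 161, 170.3, 164 and 161 in untreated Scr and 125, 127, 130.0 and 146 after doxorubicin. BIRC5 in the libraries labelled KO was at 185, 181, 168 and 176 untreated and at 101, 117, 96.4 and 128 after doxorubicin. Its fall was 0.32 in Scr (SE 0.081, adjusted p = 0.00809) and 0.68 in the libraries labelled KO (SE 0.081, adjusted p = 2.75e-07), without overlap in either, and the interaction was -0.37 (adjusted p = 0.382). The scaffold INCENP was at 162, 177, 145 and 165 in untreated Scr and 148, 173, 144 and 181 after doxorubicin. INCENP in the libraries labelled KO was at 149, 162, 150.1 and 164 untreated and at 129.9, 124, 129 and 131 after doxorubicin, a fall of 0.28 (adjusted p = 0.0139). CDCA8, which encodes borealin, fell there by 0.49 (adjusted p = 0.00106).

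Anaphase starts when the anaphase-promoting complex, fed by UBE2C and UBE2S, destroys securin (PTTG1) and frees separase (ESPL1). None of these 4 genes was called in Scr, where 3 of the changes were below 0. All 4 were called lower in the libraries labelled KO, and lower there than in Scr after doxorubicin. UBE2C (ENSG00000175063, chr20:45812576-45816957, plus strand) measured 112, 129, 112 and 118 in untreated Scr and 115, 133, 132 and 151 after doxorubicin. UBE2C in the libraries labelled KO was at 107, 123, 114 and 115 untreated and at 77.6, 92.8, 84.4 and 97.0 after doxorubicin. Its change was 0.16 in Scr (SE 0.086, adjusted p = 0.244) and -0.38 in the libraries labelled KO (SE 0.086, adjusted p = 0.00191), and the interaction of -0.55 (SE 0.12) was the largest relative to its error among the 55.

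UBE2S, the chain-elongating enzyme, was at 247, 271, 276 and 288 in untreated Scr and 238, 267, 245 and 306 after doxorubicin. UBE2S in the libraries labelled KO was at 242, 242, 293 and 350.3 untreated and at 202, 197, 196 and 245 after doxorubicin, a fall of 0.41 (adjusted p = 0.00380) with 1 treated library, KO28 replicate 2, above the lowest untreated ones. ESPL1 was at 123, 133, 132 and 108 in untreated Scr and 104, 118, 109 and 129 after doxorubicin. ESPL1 in the libraries labelled KO was at 105, 108, 112 and 116 untreated and at 88.0, 74.3, 91.4 and 91.4 after doxorubicin, without overlap, a fall of 0.35 (adjusted p = 0.00425). PTTG1 fell there by 0.44 (adjusted p = 0.00152).

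Condensin I compacts mitotic chromosomes through NCAPG and NCAPH, and the shugoshins SGO1 and SGO2 guard centromeric cohesion. Of the 4, 0 were called in Scr, although all 4 changes there were below 0. In the libraries labelled KO 1 was called lower, against 6.95% of all genes. After doxorubicin 1 was called lower there than in Scr, against 4.17% of all genes. NCAPH measured 95.8, 109, 113 and 103 in untreated Scr and 78.7, 96.2, 86.1 and 109.7 after doxorubicin. NCAPH in the libraries labelled KO was at 92.9, 96.3, 85.2 and 103 untreated and at 75.8, 74.0, 72.1 and 76.3 after doxorubicin, a fall of 0.33 (adjusted p = 0.0107). NCAPG was at 140.4, 165, 172 and 137 in untreated Scr and 147, 162, 143 and 161 after doxorubicin. NCAPG in the libraries labelled KO was at 159.7, 157, 133 and 142 untreated and at 131, 128, 127 and 122 after doxorubicin. Its change there, -0.21, was not called (adjusted p = 0.0760), and the difference from Scr after doxorubicin, -0.27, was (adjusted p = 0.0235), though this call was lost in 11 of 23 alternatives, among them the leaving out of any one clone.

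**Figure D5:**
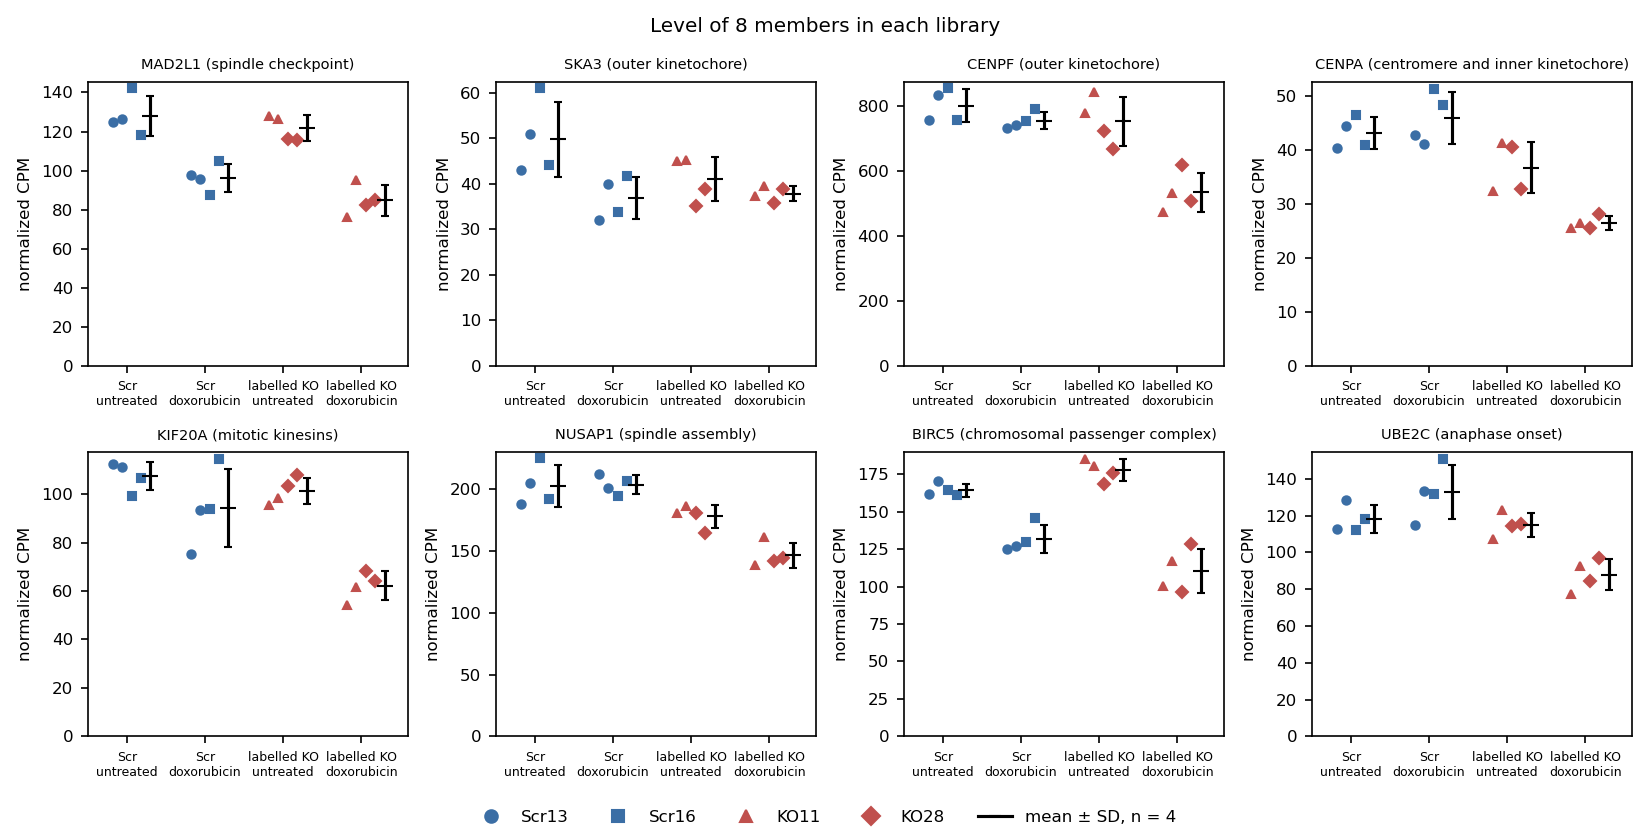
Levels of 8 genes in normalized CPM in each library, with one marker shape per clone and the mean and SD of each group of 4 libraries. MAD2L1 and BIRC5 are lower after doxorubicin in both genotypes, SKA3 overlaps between treatments in the libraries labelled KO, and in CENPF, CENPA, KIF20A, NUSAP1 and UBE2C the libraries labelled KO after doxorubicin lie below the other groups.

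Lists of related genes were read in the same fits, and whether they differ from the 57 was not tested. Of all genes, 5.04% were called lower and 6.41% higher in Scr, and 6.95% and 9.67% in the libraries labelled KO. Between genotypes 2.54% were called lower without treatment and 4.17% after doxorubicin. The counts of the lists below stand beside these shares. Of 34 other mitotic genes with cell cycle regulated expression, 0 were called in Scr (4 at an unadjusted p under 0.05) and 18 fell in the libraries labelled KO, with a median of -0.33. CDC20, the activator of the anaphase-promoting complex, fell most (-0.85, adjusted p = 4.31e-06), and CDC25C changed least (-0.028). In Scr the extremes were OIP5 (-0.49) and PIF1 (0.37), neither called. After doxorubicin 19 of the 34 were called lower in the libraries labelled KO, and 0 without treatment (2 at an unadjusted p under 0.05). PLK1, the kinase that drives mitotic entry and kinetochore assembly, differed most, by -0.69 (adjusted p = 4.80e-04).

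Of 25 kinetochore subunits outside the 57, 23 were tested, and 4 fell in Scr, with MIS12 at -0.45 (adjusted p = 0.0117) and CENPC highest at 0.28 (not called). In the libraries labelled KO 4 fell, with CENPV at -0.55, and 1 rose, CENPP at 0.63 (adjusted p = 4.03e-05). The medians were -0.10 and -0.16. Of 15 subunits of the anaphase-promoting complex, 0 were called in Scr (4 at an unadjusted p under 0.05), where ANAPC15 (-0.47) and CDC26 (0.13) were the extremes. In the libraries labelled KO 1 of the 15 was called lower, near the 6.95% of all genes. It was ANAPC15 (-0.51, adjusted p = 0.0231), while CDC26 (-0.61) and ANAPC10 (0.097), the extremes there, were not called.

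Of 16 cohesin and other condensin genes, 4 fell and 1 rose in Scr, from SMC2 (-0.35) to NCAPD2 (0.23). In the libraries labelled KO 6 fell, from SMC2 (-0.46) to MAU2 (-0.020, not called). After doxorubicin SMC4 and NCAPD2 were lower in the libraries labelled KO, by 0.28 and 0.40. Among 21 transport kinesins, which carry cargo and do not build spindles, 0 were called lower and 2 higher in Scr. In the libraries labelled KO 0 were called lower and 3 higher. The shares of all genes called higher were 6.41% in Scr and 9.67% in the libraries labelled KO, so these counts lie near the background. KIF17 had the most positive estimate in both, 0.84 (adjusted p = 0.0403) and 0.45 (not called), KIF26B the lowest in Scr (-0.30) and KIF5C the lowest in the libraries labelled KO (-0.13), neither called. Of 23 septin and abscission genes, 2 fell in Scr and 1 fell and 3 rose in the libraries labelled KO, also near the shares of all genes called lower and higher. CHMP4A (-0.36) and IST1 (0.13) were the extremes in Scr, neither called, and SEPTIN11 (-0.29) and SEPTIN6 (0.31) those in the libraries labelled KO, both called.

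As a description of the treatment, 10 genes known to respond to doxorubicin and p53 were read in the same way. The list was chosen with earlier results of these data known, so it tests nothing. In Scr 9 rose and in the libraries labelled KO all 10 rose, with medians of 1.55 and 1.80. GDF15 rose most (4.36 and 4.54), and the smallest changes were TP53I3 in Scr (0.26, not called) and SESN1 in the libraries labelled KO (1.26). CDKN1A, which encodes the CDK inhibitor p21, was at 75.1, 46.9, 42.3 and 63.8 in untreated Scr and 340.3, 365, 304 and 340.3 after doxorubicin. CDKN1A in the libraries labelled KO was at 124, 123, 158 and 141 untreated and at 788, 739, 677 and 742 after doxorubicin. It was higher in the libraries labelled KO by 1.27 without treatment and by 1.12 after it (adjusted p = 3.36e-06 and 1.98e-09), with no overlap in either. Of this list 3 of 9 genes tested were higher in the libraries labelled KO without treatment, against 2.3% of all genes. After doxorubicin 9 of 10 were, against 4.52% of all genes.

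Neuroblastoma lines can hold adrenergic and mesenchymal cell states, and markers of both were read. Of 11 adrenergic markers, the summed level was 7597, 7688, 7484 and 8277 normalized CPM in untreated Scr and 7579, 7975, 8302 and 8548 in the untreated libraries labelled KO. After doxorubicin it was 8118, 8320, 8488 and 8828 in Scr and 8135, 7904, 7703 and 8398 in the libraries labelled KO. STMN2, DBH, HAND2 and GATA2 were the most abundant, and TH, the first enzyme of catecholamine synthesis, was between 0 and 1.13 in all libraries. With doxorubicin 1 of 10 tested fell and 2 rose in Scr, from CHGA (-0.36, not called) to HAND2 (0.30), and 3 fell and 1 rose in the libraries labelled KO, from CHGA (-1.36) to HAND2 (0.21). CHGA was at 2.59, 26.4, 1.21 and 1.46 in the untreated libraries labelled KO, so 1 library stood far above the rest.

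The 9 mesenchymal and Schwann type markers found summed to 755, 417, 506 and 559 in untreated Scr and 768, 717, 926 and 877 in the untreated libraries labelled KO. After doxorubicin the sums were 507, 440.2, 656 and 596 in Scr and 906, 719, 993 and 836 in the libraries labelled KO, where all 4 lay above the 4 treated Scr libraries. VIM was the most abundant in the libraries labelled KO and TWIST1 in most of the Scr libraries. S100B, the only Schwann type marker found, was at or near 0 and not tested, and PRRX1 and SOX10 were not analysed. Without treatment 4 of 8 mesenchymal markers tested were higher and 1 lower in the libraries labelled KO, against 2.3% and 2.54% of all genes. After doxorubicin 5 of 7 were higher and 1 lower, against 4.52% and 4.17% of all genes. YAP1 was highest in both (1.91 and 2.18), FN1 differed by 1.55 and 2.14, and TWIST1 was lower (-0.53 and -0.64). With doxorubicin COL1A2 and CD44 were the extremes in both genotypes, -0.79 and 0.94 in Scr (not called) and -0.98 and 1.66 in the libraries labelled KO (both called). Their levels per library do not show which cells held them.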

How the data were processed

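Poly(A) RNA libraries of 4 groups of 4 were compared. Per the labels, reads were made with bcl2fastq, aligned with HISAT2 2.1.0 to GRCh38, counted with HTSeq and normalized with edgeR; the annotation release is not given in the sources used here. The deposited values are a signal, the authors' counts divided by library size and a normalization factor (normalized CPM). Whole reads were recovered for 100% of values (tolerance 0.1 read), and 0 value columns were left over. The deposited fold changes, p-values and q-values of the authors' own comparison were not used. The deposited normalization factors lay between 0.974 and 1.03. A floor of 3 reads covers counting error only. Names matched 95.0% of identifiers, and positions came from GENCODE 29.

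The genes, roles and lists were chosen with earlier results of these data known. Genotypes were compared within each deposited table with limma 3.58.1 (R 4.3.3) on log2(normalized CPM + 1), with an abundance trend, for genes that reached 1 normalized CPM in 4 or more of 8 libraries. Doxorubicin changes and the interaction used recovered reads of all 16 libraries scaled together (edgeR 4.0.16, TMM), 4 group means and the same filter in 4 of 16. The scripts were tested on simulated data, with the changed genes drawn from all levels. At a change of 1.25-fold, 1.56% to 5.26% of changed genes were recovered in the doxorubicin changes and genotype comparisons, and 0% for the interaction. At 1.5-fold these shares were 46% to 50% and 12.2%. Up to 16.7% of calls were false where genes were changed. A count of 0 for the interaction or without treatment therefore does not show that small changes are absent. Genes given in every library are, per role, the highest in level and the extremes of the change in Scr, the 5 lowest p of the interaction, and the lowest p between genotypes, 5 after doxorubicin and 3 without. Of the lists, the extremes of each doxorubicin change are named by their log2 change. Other list genes that are named, CDKN1A and the cell state markers among them, were chosen after their values were seen. Alternatives covered scaling, pseudocount, filter, threshold, edgeR's quasi-likelihood test, DESeq2 1.42.0, blocks, sums per clone, and each library and clone left out.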

Additional observations from a re-analysis of the deposited data

Results flagged for a closer look

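Within the groups of 4 libraries, 9 of 136 sets of values had 1 library far from the other 3 (a gap over Dixon's 95% critical share of the range), where chance gives about 1 in 20. After doxorubicin, KO11 replicate 1 was lowest for KIF11 (151.9 normalized CPM against 165 to 167) and TTK (55.48 against 64.4 to 66.1). KO28 replicate 2 was highest for KIF18A (44.78 against 28.7 to 30.8) and UBE2S (244.8 against 196 to 202). Scr16 replicate 2 was highest for CKAP2L (106.8 against 92.0 to 93.8) and Scr16 replicate 1 for TTK (90.3 against 73.0 to 75.9). Scr13 replicate 2 was highest for KIFC1 (0.4416 against 0 to 0.0594). Untreated, Scr16 replicate 2 was lowest for KIF14 (99.45 against 122 to 125), and Scr13 replicate 2 was highest for PRC1 (293.4 against 263.4 to 268.5).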

How the results depend on the processing

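In every alternative and comparison, 0 of the genes were called higher. Counts of called genes with 1 library left out ranged from 3 to 10 in Scr (6 with all) and from 30 to 41 in the libraries labelled KO (34). They were 0 for the interaction, and ranged from 0 to 1 without treatment (0) and from 23 to 35 after doxorubicin (33). Over all genes the calls in these fits ranged from 1251 to 1961 in Scr and from 1902 to 2524 in the libraries labelled KO. For the interaction they ranged from 1 to 6, without treatment from 508 to 678 and after doxorubicin from 814 to 1314. In Scr the count was 3 with no filter, 2 at a threshold of 0.01, 0 without clone Scr13 and 1 without Scr16. Calls over all genes were 1273, 914, 454 and 774 in these fits, against 1755 in the main one. In the libraries labelled KO the count was 10 without clone KO11, with 858 calls over all genes against 2547. Between genotypes the count was 2 without KO11 in untreated libraries, where calls over all genes were 796 against 695. After doxorubicin it was 12 without KO11, 20 without KO28 and 21 at a threshold of 0.01. Calls over all genes there were 510, 575 and 733, against 1266. For the interaction DESeq2 called 2 of these genes and 31 of all 15321. The cause of these changes was not tested, beyond the fewer libraries compared when a clone is left out.

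Replicate numbers showed at most a weak pairing of the libraries. Deviations of same-numbered libraries of a clone correlated at a median of 0.058 across treatments (-0.037 to 0.22), and different-numbered ones at 0.020 (-0.139 to 0.128). Across genotypes the medians for same and different numbers were 0.022 and -0.019 untreated, and 0.027 and -0.033 after doxorubicin. Whether the numbers mark a pairing was not tested. With clone and replicate as a block, 8 genes were called in Scr, 37 in the libraries labelled KO and 1 for the interaction (UBE2C, adjusted p = 0.0276). Over all genes these counts were 2104, 2846 and 25. With the replicate block, 0 were called between genotypes untreated and 37 after doxorubicin (697 and 1365 over all genes). With reads summed per clone, 32 were called after doxorubicin (1117 over all genes). Of the genes given in every library, 4 were called in Scr, 23 in the libraries labelled KO and 21 between genotypes after doxorubicin: over 96, 552 and 483 alternatives, the call was lost in 18, 56 and 61 and the sign turned in 0. Low counts limit CENPM and CENPW most, and SPC25 and KIFC1 were too low to test.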
